A study of Mus musculus with 8 samples.

Results

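Genes of mitosis and DNA replication were examined in RNA of hepatic macrophages taken from mice with acetaminophen liver injury. The set was chosen by name as 42 cell cycle genes. A gene was measured where an array row (probe set) carried its symbol and no other, and a gene with several such rows was read from its brightest one on average. Of the 42 genes, 40 were measured, of 22180 genes in all: 13 that act at the G1/S boundary and in DNA synthesis, called replication members here, and 27 that act in G2 and mitosis, called mitotic members. Ccnb1 (cyclin B1) and Ccne2 (cyclin E2) were not analysed here, Ccne2 because its row was also annotated to a neighbouring gene. All mice were FVB/N males aged 8 weeks that received a recombinant protein in the tail vein and, 12 h later, 350 mg/kg acetaminophen into the peritoneum. In the rTF group the protein was transferrin, the plasma iron carrier, at 25 µg, and in the rCPS1 group it was carbamoyl phosphate synthetase 1, the first enzyme of the urea cycle, at 50 µg, so the protein and its amount differed together. Each group held 4 arrays, and uninjured mice or mice without a protein were not analysed here. All titles begin with the same mouse name, so whether replicates came from separate animals is not settled. The p-values then reflect no more than how these samples vary, and that variation may be technical.

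Dividing cells copy their DNA in S phase and part the copies in mitosis, and the genes for these steps are transcribed little in resting cells. Replication genes such as those of the MCM helicase are switched on by E2F factors as cells leave G1, whereas mitotic genes are switched on later by the MuvB complex with B-MYB and FOXM1. Resident Kupffer cells can renew by local division, while incoming monocytes, T cells and other blood cells can bring their own cycling fraction, so in a bulk preparation more cells in cycle and more RNA per cycling cell cannot be told apart.

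The members differ in the letters of their promoters, and a few are printed to show how the motifs of both classes lie beside the start. Promoters were available for 23 of the 27 mitotic and 12 of the 13 replication members (RefSeq, GRCm38.p6, 250 bases before to 50 after each start). A cell cycle homology region (CHR, searched as TTTGAA or TTCGAA on both strands), the element that MuvB contacts, was found in 18 of 23 mitotic promoters (78.3%), in 2 of 12 replication promoters (16.7%) and in 21.7% of the 27025 genes with a promoter. Within 50 bases of the start, a CHR match lay in 16 of the 23 mitotic promoters (69.6%), in 0 of the 12 replication promoters and in 6.12% of all genes. E2F motifs were searched on both strands, as TTCCCGC first, next as TTGGCGC, then as TTCGCGC and last as TTGCCGC, with overlapping matches counted. One was found in 6 of 12 replication promoters (50.0%), in 2 of 23 mitotic promoters (8.7%) and in 10.9% of all genes. The CCAAT box, bound by NF-Y, was in 17 of the mitotic and 8 of the replication promoters (73.9% and 66.7%), against 41.1% of all genes. The 120 bases before the start of 2 members of each class are printed 5′ to 3′ with these 3 motifs in capitals: Cdk1 (chr10:69352913-69353032, minus strand) and Top2a (chr11:99024190-99024309, minus strand) with CHR matches, and Mcm6 (chr1:128359706-128359825, minus strand) and Uhrf1 (the first of 2 starts listed, chr17:56303217-56303336, plus strand) with E2F matches.
Cdk1: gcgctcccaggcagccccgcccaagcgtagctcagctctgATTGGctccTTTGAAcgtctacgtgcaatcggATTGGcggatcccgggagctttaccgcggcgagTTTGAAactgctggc
Top2a: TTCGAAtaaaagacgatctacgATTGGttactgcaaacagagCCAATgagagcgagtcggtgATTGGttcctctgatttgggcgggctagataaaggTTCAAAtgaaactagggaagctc
Mcm6: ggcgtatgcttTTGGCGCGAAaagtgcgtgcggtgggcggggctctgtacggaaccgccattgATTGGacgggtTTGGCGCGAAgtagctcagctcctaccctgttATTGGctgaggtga
Uhrf1: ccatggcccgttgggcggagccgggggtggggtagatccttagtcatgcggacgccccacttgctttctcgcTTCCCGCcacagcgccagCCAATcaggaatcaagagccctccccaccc
In Cdk1, which also holds E2F matches farther upstream, a CHR begins 15 bases and in Top2a 23 bases before the start. In Mcm6 the match TTGGCGC overlaps a second match on the other strand, at 46 and again at 109 bases before the start. These matches are letters only and were not measured as binding sites.

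Values are log2 levels that the authors normalized with RMA. They are compared between arrays for the same gene, not between genes. Pairs of arrays correlated at r = 0.967 to 0.983 over array rows, which are not independent, and rTF replicate 2 stood apart on the first principal component (21.5% of the variance), at 78.3 against -36.0 to 7.45 for the other arrays. The 14 Kupffer cell markers had a mean log2 level of 9.13 to 9.95 by array. All 14 lay above the median gene, but so did all 12 endothelial, 11 of 12 hepatocyte and 15 of 16 T and NK cell markers, so these levels do not test the purity of the preparation. For members with values in every array, the log2 difference is given with rTF replicate 2 and without it.

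Most of the cell cycle genes moved together between arrays, and arrays of both groups lay on the high and on the low side of that movement. Of the 40 members, 35 lay above the median level of all genes, and the 5 below it were Birc5, Cenpf, Bub1, Ttk and Spc25, all mitotic. The SD of a member over the 8 arrays had a median of 0.37 for mitotic members and 0.27 for replication members, against 0.22 for all genes, and 32 of the 40 exceeded the median gene by this SD. To put the members on a common footing, each gene's level was taken as its deviation from its own mean over the 8 arrays. In rTF replicate 2, 38 of 40 members were above their own mean, against 53.1% of all genes and 59.7% of genes above the median level. In rTF replicate 3 only 5 of 40 were above it and in rTF replicate 1 only 7, whereas rTF replicate 4 had 27. Among the rCPS1 arrays, 28 members were above their mean in replicate 1, 8 in replicate 2, 33 in replicate 3 and 14 in replicate 4. Each group thus held arrays with most members high and arrays with most members low.

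**Figure D1:**
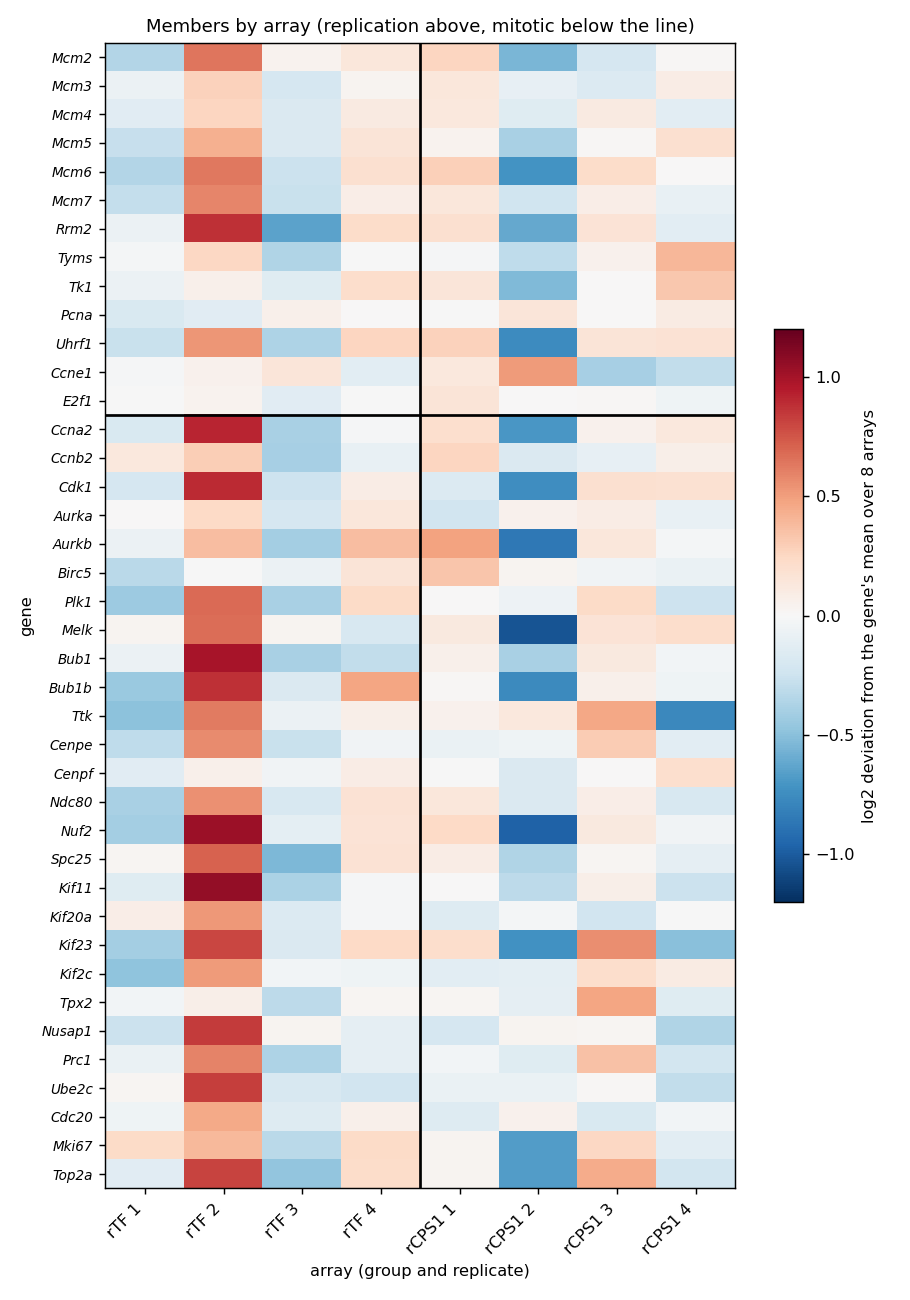
Log2 deviation of each of the 40 members (rows, replication members above the line and mitotic members below it) from its own mean over the 8 arrays (columns, rTF to the left and rCPS1 to the right of the line). Red in rTF replicate 2 runs through 38 of 40 members, and blue in rCPS1 replicate 2 is deep for part of each class.

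rTF replicate 2 was the highest of the 8 arrays for 31 of 40 members (77.5%), 23 of 27 mitotic and 8 of 13 replication, against 19.9% of all genes and 28.0% of genes above the median level. The other 9 members peaked in rCPS1 arrays, and none peaked in another rTF array. rCPS1 replicate 2 was the lowest array for 16 of 40, against 11.1% of all genes, followed by rTF replicate 3 with 10 and rTF replicate 1 with 7. Of all 22180 genes, 2977 were lowest in rTF replicate 3 and 2879 in rTF replicate 1, so the 7 members lie near the share over all genes. In rCPS1 replicate 2 the members did not shift evenly. There, 9 mitotic members (Melk, Nuf2, Aurkb, Bub1b, Cdk1, Kif23, Ccna2, Mki67 and Top2a) lay 0.67 to 1.04 log2 units under their own means, with deviations of -1.04 to -0.67, while the other 18 lay between -0.39 and 0.13. That division, at a deviation of -0.5, was drawn after the values were seen. By the same division 5 replication members (Uhrf1, Mcm6, Rrm2, Mcm2 and Tk1) had deviations of -0.75 to -0.53 and the other 8 lay between -0.39 and 0.51.

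Replication and mitotic members ordered the arrays alike at both ends. The mean deviation of the 27 mitotic members was -0.17, 0.60, -0.24 and 0.064 in rTF replicates 1 to 4 and 0.040, -0.33, 0.14 and -0.11 in rCPS1 replicates 1 to 4. For the 13 replication members it was -0.16, 0.34, -0.19 and 0.10 with rTF and 0.14, -0.28, 0.0044 and 0.048 with rCPS1. Both classes were thus highest in rTF replicate 2 and lowest in rCPS1 replicate 2, with rTF replicates 3 and 1 next to lowest, and they differed in the order of the middle arrays. The mitotic mean exceeded the replication mean by 0.26 in rTF replicate 2 and by 0.14 in rCPS1 replicate 3. In the other arrays the mitotic mean was the lower of the pair, by the most in rCPS1 replicate 4 (-0.16) and rCPS1 replicate 1 (-0.10). Averaged over the arrays of a group, this mitotic minus replication value was 0.044 ± 0.15 for rTF and -0.044 ± 0.13 for rCPS1 (SD over 4 arrays each). The difference of -0.087 is smaller than either SD.

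**Figure D2:**
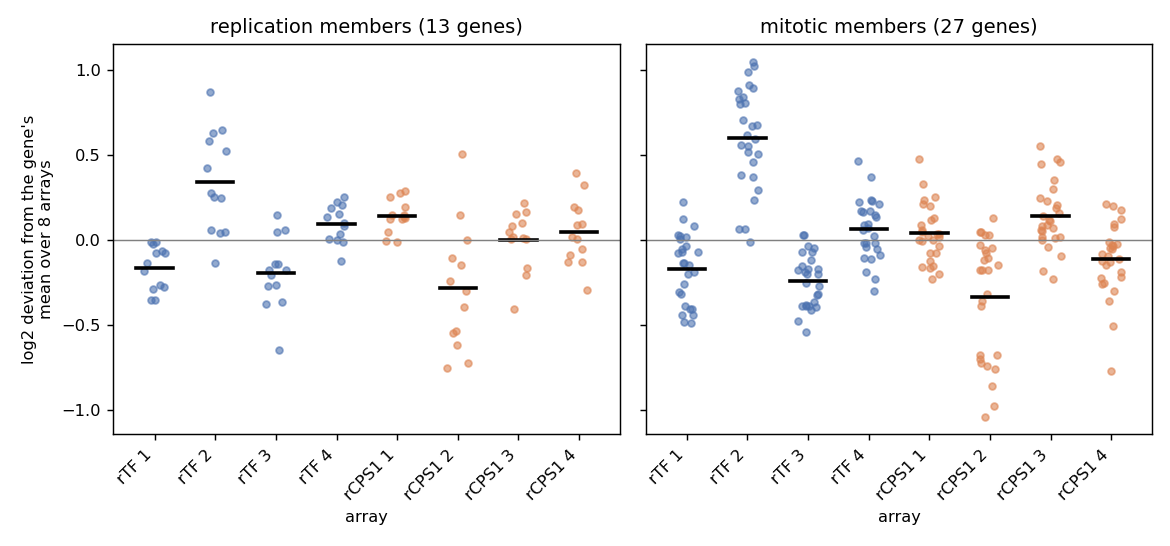
Log2 deviation from the gene's own 8-array mean (y axis) for each replication member (left) and mitotic member (right), by array (x axis, rTF in blue and rCPS1 in orange), with black bars at the mean. The bars are highest in rTF replicate 2 (0.34 and 0.60) and lowest in rCPS1 replicate 2 (-0.28 and -0.33).

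Among the replication members, the 6 subunits of the MCM helicase, which unwinds DNA at the fork, all peaked in rTF replicate 2. Mcm6 was at 6.45, 7.43, 6.54 and 6.99 in rTF replicates 1 to 4 and at 7.09, 6.08, 7.02 and 6.81 in rCPS1 replicates 1 to 4. Mcm2 was at 5.80, 6.80, 6.20 and 6.29 with rTF and at 6.41, 5.61, 5.95 and 6.17 with rCPS1. For both subunits the highest array was an rTF array and the lowest an rCPS1 array, both numbered 2, and the remaining 6 arrays of the groups were interleaved. The log2 difference, rCPS1 minus rTF, was -0.10 ± 0.27 (SE) for Mcm6 and -0.24 ± 0.23 for Mcm2, and without rTF replicate 2 it was 0.09 ± 0.25 and -0.06 ± 0.21. The other subunits spanned 8.05 to 8.53 for Mcm3, 7.24 to 7.67 for Mcm4, 7.13 to 7.95 for Mcm5 and 6.52 to 7.39 for Mcm7, with differences of -0.07 to -0.02.

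Rrm2, the small subunit of ribonucleotide reductase, had the widest spread of the replication members (SD 0.49 over 8 arrays). It was at 5.16, 6.10, 4.58 and 5.45 with rTF and at 5.42, 4.61, 5.39 and 5.10 with rCPS1, and the groups overlapped (-0.19 ± 0.30, SE, and 0.07 ± 0.26 without rTF replicate 2). A second Rrm2 row (probe set 17547690), dim at a mean of 1.72 and not used for this gene, had a difference of 0.07. Uhrf1, which carries DNA methylation through replication, was at 6.15, 6.94, 6.04 and 6.67 with rTF and at 6.69, 5.66, 6.57 and 6.59 with rCPS1, so that rCPS1 replicate 2 was the lowest array. The difference was -0.07 ± 0.27, or 0.09 ± 0.27 without rTF replicate 2. Thymidylate synthase (Tyms) and thymidine kinase 1 (Tk1), which supply dTMP, peaked in rCPS1 replicate 4, at 5.73 and 5.84. Their differences were 0.07 and -0.03.

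Pcna, E2f1 and Ccne1 did not follow the pattern. Pcna, the sliding clamp of DNA polymerases, was at 10.25, 10.30, 10.49 and 10.44 with rTF and at 10.43, 10.58, 10.44 and 10.53 with rCPS1, with an SD over the 8 arrays of 0.11. It was highest in rCPS1 replicate 2, where most members were low, and its difference was 0.12 ± 0.11, or 0.10 ± 0.11 without rTF replicate 2. RefSeq lists Pcna pseudogenes that an array may not separate, so its value is uncertain. E2f1, an activator of replication genes, was at 5.62, 5.67, 5.49 and 5.62 with rTF and at 5.78, 5.63, 5.64 and 5.58 with rCPS1. Its SD of 0.08 was the smallest of the members, and its difference was 0.06 ± 0.10, or 0.09 ± 0.11 without rTF replicate 2. Ccne1 (cyclin E1) was highest in rCPS1 replicate 2 at 5.89, with the other arrays at 4.98 to 5.53.

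Among the mitotic members, the median SD over the 8 arrays was 0.47 for the cyclins with Cdk1, 0.46 for the checkpoint genes, 0.37 for the kinesins and 0.30 for the kinetochore genes. Nuf2, a kinetochore gene of the Ndc80 complex that ties chromosomes to spindle fibres, was at 4.91, 6.34, 5.20 and 5.48 with rTF and at 5.55, 4.34, 5.43 and 5.27 with rCPS1. Its range of 2.00 log2 units was the widest of all members, from rCPS1 replicate 2 at the bottom to rTF replicate 2 at the top. Its difference was -0.34 ± 0.33, or -0.05 ± 0.28 without rTF replicate 2. Of its partners, Ndc80 spanned 5.81 to 6.75 and Spc25 3.45 to 4.70, both highest in rTF replicate 2. Of the kinetochore-bound proteins, the motor Cenpe spanned 4.75 to 5.62 and Cenpf 3.39 to 3.73. Cenpf was the dimmest but 1 of the mitotic members and the flattest of them (SD 0.12).

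Kinesin motors slide and bundle spindle fibres. Kif23, which acts in cytokinesis, was at 5.84, 7.05, 6.07 and 6.48 with rTF and at 6.46, 5.52, 6.80 and 5.74 with rCPS1 (-0.23 ± 0.32, and -0.0038 ± 0.31 without rTF replicate 2). Its groups overlapped, and rCPS1 replicate 3 was the next highest array after rTF replicate 2. Kif20a, a motor of the late mitotic midzone, had the smallest p of all members and was at 4.90, 5.34, 4.65 and 4.80 with rTF and at 4.66, 4.79, 4.59 and 4.81 with rCPS1. Its difference was -0.21 ± 0.15, with an unadjusted p of 0.197 in limma, and the groups overlapped. Without rTF replicate 2 the difference was -0.07 ± 0.12. Kif11, the motor that keeps spindle poles apart, was at 6.52 in rTF replicate 2 and at 5.09 to 5.54 in the other arrays. Its gap of 0.98 from the highest array to the next was the widest among members. Kif2c, which shortens microtubules, spanned 4.18 to 5.17.

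Among the cyclin and kinase genes, Cdk1, Ccna2 and Melk ran from rCPS1 replicate 2 at the bottom to rTF replicate 2 at the top. Ccnb2, Aurka and Plk1 peaked in rTF replicate 2 but were lowest in rTF replicate 3, rCPS1 replicate 1 and rTF replicate 1. Cdk1, the mitotic kinase itself, was at 4.19, 5.29, 4.14 and 4.48 with rTF and at 4.23, 3.65, 4.58 and 4.57 with rCPS1 (-0.27 ± 0.28, and -0.01 ± 0.23 without rTF replicate 2). Ccna2 (cyclin A2), its partner from S phase on, was at 6.12 in rTF replicate 2, at 4.51 in rCPS1 replicate 2 and at 4.82 to 5.41 in the rest, and Ccnb2 (cyclin B2) spanned 5.59 to 6.28. Melk, a kinase of dividing cells, was at 4.35, 4.99, 4.35 and 4.13 with rTF and at 4.44, 3.28, 4.48 and 4.53 with rCPS1 (-0.27 ± 0.29, and -0.09 ± 0.29 without rTF replicate 2). For Melk the low end was set by rCPS1 replicate 2 alone, since the other 7 arrays lay between 4.13 and 4.99. Aurora kinase A (Aurka) spanned 4.23 to 4.70, Aurora kinase B (Aurkb) 4.63 to 5.97 and Polo-like kinase 1 (Plk1) 4.46 to 5.58. Birc5 (survivin), which works with Aurkb in the chromosomal passenger complex, was the dimmest member, at 2.91 to 3.56. Aurkb and Birc5 both peaked in rCPS1 replicate 1.

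Spindle checkpoint genes hold cells back until every chromosome is attached. Bub1b (BubR1) was at 4.26, 5.58, 4.53 and 5.17 with rTF and at 4.72, 3.94, 4.76 and 4.65 with rCPS1, and its difference of -0.37 ± 0.29 was the largest of any member in size, yet the groups overlapped. Without rTF replicate 2 it was -0.14 ± 0.26. Bub1 was at 5.11 in rTF replicate 2 and at 3.73 to 4.24 elsewhere, and Ttk (MPS1) ranged from 3.25 in rCPS1 replicate 4 to 4.64 in rTF replicate 2. Among targets and partners of the anaphase-promoting complex, which ends mitosis, the ubiquitin carrier Ube2c was at 5.44 and the activator Cdc20 at 5.98 in rTF replicate 2, against 4.31 to 4.63 and 5.34 to 5.58 in the others.

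Of the spindle and chromosome genes, Nusap1, which binds and bundles microtubules, was at 4.58, 5.68, 4.87 and 4.73 with rTF and at 4.64, 4.87, 4.86 and 4.48 with rCPS1 (-0.25 ± 0.22, and -0.01 ± 0.14 without rTF replicate 2). A lone rTF array was high, and the other 7 lay within 4.48 to 4.87. Prc1 spanned 4.94 to 5.90, and Tpx2 peaked in rCPS1 replicate 3, at 6.58 against 5.79 to 6.17. Top2a, the topoisomerase that untangles sister DNA, was at 5.72, 6.66, 5.38 and 6.07 with rTF and at 5.89, 5.18, 6.30 and 5.63 with rCPS1 (-0.21 ± 0.29, and 0.03 ± 0.26 without rTF replicate 2). Mki67, which coats mitotic chromosomes and encodes the Ki-67 marker of cycling cells, was at 7.57, 7.73, 7.02 and 7.57 with rTF and at 7.38, 6.67, 7.59 and 7.22 with rCPS1 (-0.26 ± 0.22, and -0.17 ± 0.23 without rTF replicate 2). Both had overlapping groups, and rTF replicate 3 and rCPS1 replicate 2 were the lowest arrays of both.

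Set by group, rCPS1 against rTF, no member passed. The limma fit over all 22180 genes gave 0 genes with an adjusted p under 0.05 (0.0% of genes), and the 40 members had adjusted p-values of 0.98 to 0.996. At an unadjusted p under 0.05 there were 0 of 40 members, against 4.67% of all genes (1035 genes), 2.79% lower and 1.88% higher with rCPS1. The groups overlapped for all 40 members, and they did not overlap for 2.92% of all genes. Among 40 genes neither count lies far from its share over all genes, so neither sets the members apart. The mitotic class averaged a deviation of 0.066 ± 0.38 (SD, n = 4) in rTF arrays and -0.066 ± 0.21 in rCPS1 arrays, and the replication class 0.022 ± 0.25 and -0.022 ± 0.18, so both differences (-0.13 and -0.044) were smaller than the spread between arrays of a group. The median log2 difference was -0.16 for mitotic members (21 of 27 below 0) and -0.03 for replication members (10 of 13 below 0), against -0.018 for all genes, of which 54.4% were below 0. Because the members moved together from array to array, these counts of direction are not counts of independent genes.

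The direction of both medians depended on rTF replicate 2, and that of the replication median also on rCPS1 replicate 2. Without rTF replicate 2 the median was 0.030 for mitotic and 0.070 for replication members, with 14 members below 0 and 26 above. Without rCPS1 replicate 2 it was -0.029 and 0.045, with 20 of 40 members below 0. With both left out, an alternative added after the data were seen, the medians were 0.19 and 0.16 and 35 of 40 members were higher with rCPS1, with 0 members at an unadjusted p under 0.05. The median standard error of a member's log2 difference was 0.21, against 0.15 for all genes. All 40 members' 95% intervals held 0, and their bounds ran from -1.08 (Nuf2) to 0.57 (Ttk). These 8 arrays therefore do not separate a small shift in either direction from none. For Mki67 the interval was -0.74 to 0.23, for Cdk1 -0.90 to 0.36 and for Mcm6 -0.70 to 0.49, whereas the flat genes E2f1 (-0.17 to 0.29) and Pcna (-0.11 to 0.36) were held more closely.

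**Figure D3:**
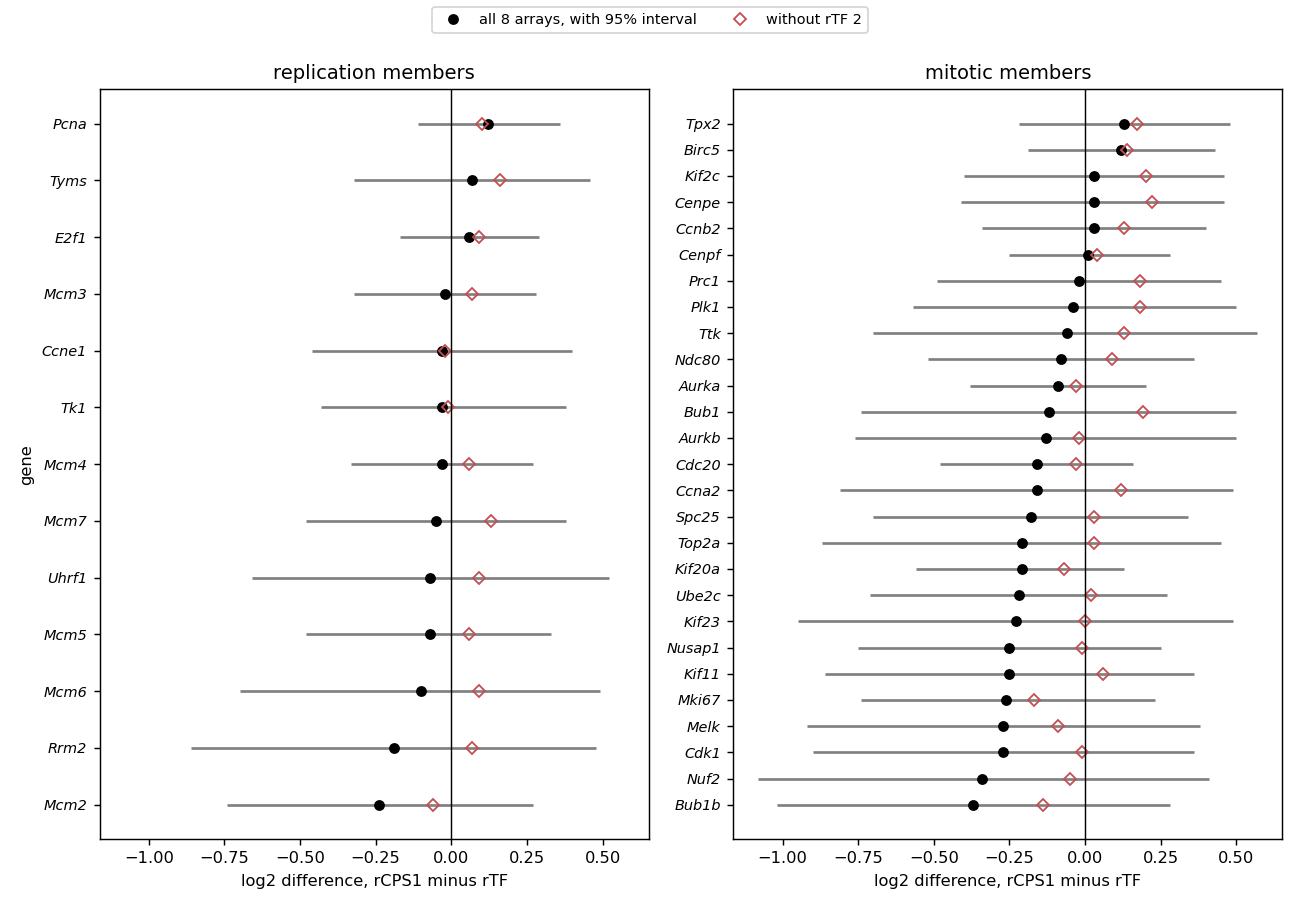
Log2 difference, rCPS1 minus rTF (x axis), for each replication member (left) and mitotic member (right), with all 8 arrays (black points, bars showing the 95% interval of the limma fit) and without rTF replicate 2 (open red diamonds). Each interval holds 0, and the diamonds lie mostly to the right of the points.

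Other genes of the cell cycle, taken from lists that do not overlap the 42 genes, showed the same array at the top. Of 50 other mitotic genes measured, 34 (68.0%) peaked in rTF replicate 2 and 45 were above their own mean there. Of 37 other replication genes, 21 (56.8%) peaked in rTF replicate 2 and 14 (37.8%) were lowest in rCPS1 replicate 2. The low end was less clear for the 50 other mitotic genes. Of these, 12 (24.0%) were lowest in rCPS1 replicate 2, where 5 peaked, and 13 in rTF replicate 3. Their mean deviation was -0.15 in rCPS1 replicate 2 and -0.21 in rTF replicate 3. By group, 34 of the 50 other mitotic genes were below 0 (median -0.069), and 22 of the 37 other replication genes were (median -0.062). Without rTF replicate 2 this turned to 14 of 50 below 0 (median 0.072) for the other mitotic genes and came to 19 of 37 (median -0.012) for the other replication genes. None of either list passed over all genes. At an unadjusted p under 0.05 there was 1 other mitotic gene, lower with rCPS1, and 0 other replication genes, against 2.79% of all genes lower and 1.88% higher, so neither list stood above the background. That gene was Cks2, read from the brightest of 4 rows, a small subunit bound to cyclin-dependent kinases, at 8.08, 8.24, 7.82 and 7.95 with rTF and at 7.94, 7.48, 7.39 and 7.75 with rCPS1, a difference of -0.38 ± 0.15 (SE, unadjusted p = 0.0314 and adjusted p = 0.98 in limma). Without rTF replicate 2 it was -0.31 ± 0.16 (unadjusted p = 0.0841 in limma). The groups overlapped in 1 rCPS1 array. Foxm1, the activator of mitotic genes, differed by -0.35 ± 0.18, the exonuclease gene Exo1 by -0.47 ± 0.25 and the replisome loading gene Dscc1 by -0.30 ± 0.14. Without rTF replicate 2 these were -0.23 ± 0.18, -0.30 ± 0.24 and -0.25 ± 0.15. In the other direction stood the origin factor gene Mcm10 (0.29 ± 0.15), the repair gene Brca2 (0.30 ± 0.22), and the mitotic genes Ckap2l (0.23 ± 0.14) and Gtse1 (0.20 ± 0.12). Dscc1, Gtse1, Exo1 and Brca2 were dimmer than the median gene (mean levels of 2.56, 3.34, 3.78 and 4.12, against 4.19).

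Genes that hold or admit cells to the cycle had a median SD over the 8 arrays of 0.20 for brakes and 0.25 for G1 entry, beside 0.24 for the other replication and 0.31 for the other mitotic genes. The 21 measured brake genes had a median difference of 0.0086, with 9 below 0 and 12 above, and the 14 genes of G1 entry a median of -0.0066, with 8 below 0 and 6 above. None of either list had an unadjusted p under 0.05. The brakes of smallest p were Wee1, a kinase that restrains Cdk1 (-0.25 ± 0.14), the antiproliferative gene Btg1 (-0.21 ± 0.12), the CDK inhibitor gene Cdkn1c (0.27 ± 0.22) and Gas1 (0.18 ± 0.15). Gas1 was dim, at a mean level of 2.85. In the G1 entry list they were Ccnd3 (cyclin D3, -0.26 ± 0.22), Cdk4 (-0.11 ± 0.11), E2f3 (0.22 ± 0.17) and Skp2 (0.14 ± 0.12). Ccnd3 was at 7.15 in rTF replicate 2 and at 5.86 to 6.74 in the other 7 arrays, so it too peaked where most members did, and without that array its difference was -0.08 ± 0.19.

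T and NK cell markers were high and low in the arrays at both ends of the members' order. The 16 measured T and NK cell markers were all above their own means in rTF replicate 2 (mean deviation 0.99), and 0 of 16 were above them in rCPS1 replicate 2 (-0.42). Their mean level was 6.34 to 7.47 by array with rTF and 6.04 to 6.50 with rCPS1, and 15 of these 16 markers were brighter than the median gene. Cd3e, a T cell receptor chain, was at 9.73 in rTF replicate 2 and at 7.71 to 8.54 in the others, and Gzmb, a granule protease of cytotoxic cells, at 8.70 against 6.68 to 7.92. The arrays did not agree throughout: rCPS1 replicate 4 was as low in T and NK markers (-0.44) as rCPS1 replicate 2 while its mitotic mean was -0.11. The 9 B cell markers were low in rCPS1 replicate 2 (-0.62) and rTF replicate 1 (-0.47) and high in rCPS1 replicate 1 (0.48). In rTF replicate 2 they stood at 0.083 with 0 of 9 highest there, and 8 of the 9 lay above the median level. The part of these cells in the members' values was not tested.

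The Kupffer cell markers ran otherwise. Of the 14, 2 were above their own means in rTF replicate 2 (mean deviation -0.27) and 0 in rCPS1 replicate 2 (-0.23), while all 14 were above them in rTF replicate 1 (0.31), where members were low, and in rCPS1 replicate 3 (0.48), where members were mostly high. Neutrophil precursor markers, of which 4 of 12 lay above the median level, were at 0.52 in rTF replicate 2 and 0.45 in rTF replicate 3. Members were high in the first of these arrays and low in the second. The 12 markers did not run alike. In rTF replicate 2, 4 of them peaked, among them Ltf (5.99 against 3.07 to 3.86 elsewhere) and Ngp (7.93 against 4.19 to 6.38). Another 4 peaked in rTF replicate 3, among them Mmp8 (8.91) and Chil3 (10.28), which is also in the monocyte list. Monocyte markers separated the groups (0.19 to 0.60 with rTF and -0.40 to -0.25 with rCPS1), which the members did not do, and 9 of the 11 had an unadjusted p under 0.05 in limma, all lower with rCPS1, against 2.79% of all genes, while 0 passed adjustment. The 8 mature neutrophil markers did so too, at 0.089 to 0.88 with rTF and -1.35 to -0.08 with rCPS1. Dendritic cell markers were at 0.27 in rTF replicate 2 and within -0.18 to 0.17 in the others. Stellate cell and fibroblast markers ran from -0.48 in rTF replicate 1 to 0.43 in rTF replicate 3, and hepatocyte markers from -0.47 in rCPS1 replicate 4 to 0.22 in rCPS1 replicate 1. Endothelial markers stayed within -0.20 to 0.081 over all arrays. Of 12 red cell precursor markers listed, 7 were measured, and 2 of these 7 lay above the median level. Their mean deviation ran from -0.33 in rTF replicate 4 to 0.28 in rTF replicate 2. Slc4a1 (6.17 against 3.43 to 5.41 elsewhere) and Epb42 (4.08 against 3.08 to 3.43) peaked in rTF replicate 2, and the other measured ones peaked in other arrays.

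**Figure D4:**
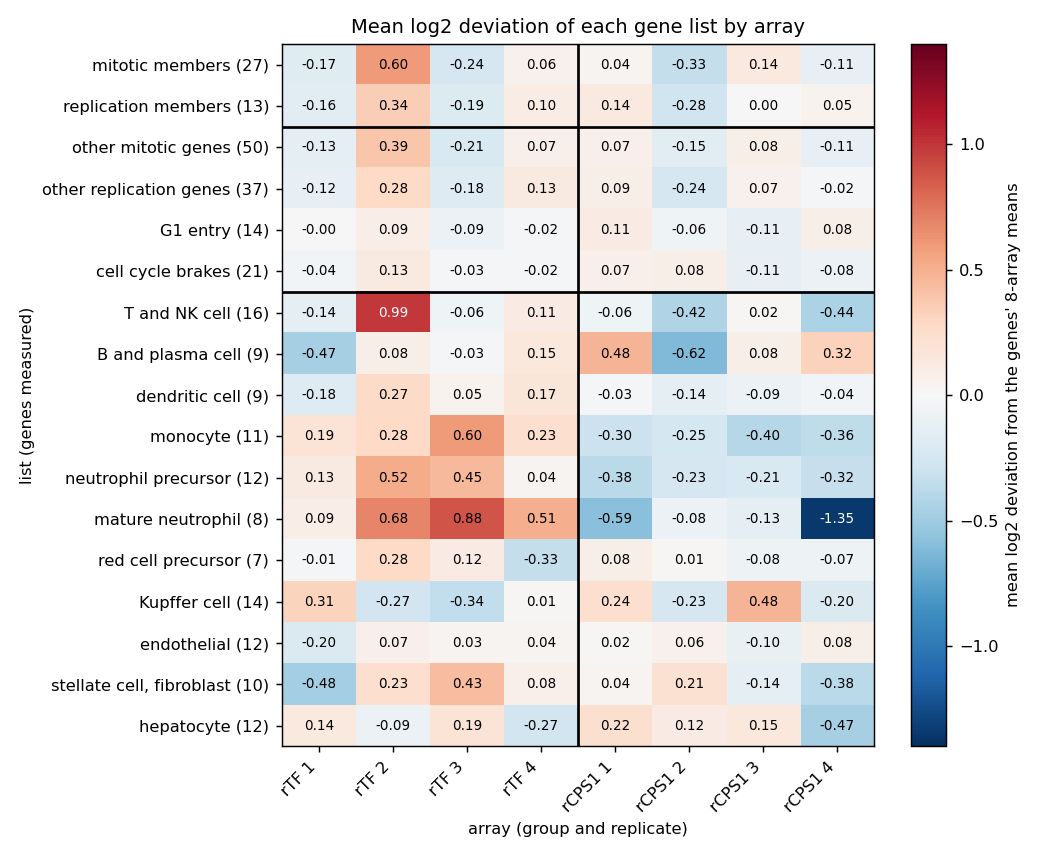
Mean log2 deviation (colour and printed value) of the members' 2 classes, other cell cycle lists and cell type marker lists (rows, with the genes measured) in each array (columns). In rTF replicate 2 the mitotic members stand at 0.60 and the T and NK markers at 0.99, and in rCPS1 replicate 2 at -0.33 and -0.42.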

How the data were processed

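Hepatic macrophage RNA was measured on 8 Affymetrix arrays from 400 ng of total RNA each, labelled with the Affymetrix WT Plus reagents (stated in the labels' protocols). The deposited values are log2 levels; the submitters' processing notes name RMA and limma, with no version, and the probe filters are not given in the sources used here. RMA sets the probe signals of the arrays to a common distribution, so a shift of all genes would largely be removed. The medians of the deposited rows still differed somewhat, from 3.555 in rTF replicate 2 to 3.683 in rCPS1 replicate 3. Of 41345 rows, 23521 had exactly 1 gene symbol, 1814 had several and 16010 had none. The brightest row on average was used for the 1082 genes with several rows, which left 22180 genes with no filter on dim ones.

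R 4.3.3 was used, with limma 3.58.1 for the group comparison (lmFit, then eBayes, two-sided and without covariates) and Benjamini-Hochberg adjustment over all genes at 0.05. The fit was tested on simulated data over these 22180 genes. The number of arrays limits the precision. Members, lists and motifs were chosen with earlier results of these data known. Genes named beyond the members were up to 2 of smallest p in each direction from each cell cycle list. Per-array values are given for the 4 members of widest spread and the 4 of smallest p in each class, and for Mki67, Top2a, Cdk1, Pcna and Bub1b. Same-numbered arrays of the groups did not deviate together over all genes (r = -0.124 to 0.025), and the main fit did not pair them. Whether same-numbered arrays were processed together was not tested. Alternatives were a filter on dim genes, the replicate number as a block, trended and robust variance, array weights (statmod 1.5.0), a second quantile normalization, averaging a gene's rows and each array left out.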

Additional observations from a re-analysis of the deposited data

Results flagged for a closer look

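In each group of 4 arrays the highest and the lowest value were set against the rest by Dixon's ratio, for the members, the other cell cycle genes named and the list means. Of 146 groups of values, 8 had an array set apart, against 7.3 expected at the rate of about 1 in 20 that chance gives. Of these 8, 4 were low values in rCPS1 replicate 2, all of members: cyclin A2 (Ccna2) at 4.51 with the other rCPS1 arrays at 5.26 to 5.41, Melk at 3.28 (others 4.44 to 4.53), Bub1b at 3.94 (4.65 to 4.76) and Uhrf1 at 5.66 (6.57 to 6.69).

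High values in rTF replicate 2 were set apart for cyclin D3 (Ccnd3), at 7.15 with the other rTF arrays at 6.40 to 6.44, and for the mean deviation of the cell cycle brakes, at 0.13 (others -0.04 to -0.02). The mean deviation of hepatocyte markers was -0.47 in rCPS1 replicate 4 (others 0.12 to 0.22), and that of endothelial markers was -0.20 in rTF replicate 1 (others 0.03 to 0.07).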

How the results depend on the processing

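No gene passed the adjusted threshold in limma under any of the 15 alternatives, where 888 to 1240 genes of 22180 (547 of 11090 with the filter on dim genes) had an unadjusted p under 0.05, and no member had one. With the replicate block the count was 0 genes, 997 had an unadjusted p under 0.05, and the block changed no call. With 1 array left out, the median log2 difference ran from -0.28 to 0.030 for mitotic members and from -0.090 to 0.070 for replication members, lowest without rTF replicate 3 and highest when rTF replicate 2 was left out. The mitotic minus replication difference ran from -0.15 to -0.015. With both arrays numbered 2 left out the mitotic median was 0.19, and 11 of the 13 named members that were negative in the full data turned positive, at 0.22 for Nuf2, 0.20 for Kif23, 0.056 for Bub1b, 0.21 for Melk, 0.014 for Mki67, 0.24 for Rrm2, 0.31 for Mcm6, 0.33 for Uhrf1, 0.079 for Mcm2, 0.22 for Top2a and 0.19 for Cdk1, while Kif20a stayed at -0.10 and Nusap1 at -0.066. With 1 array left out the sign turned for 5 of the 15 named members, whose ranges were -0.44 to 0.066 for Rrm2, -0.24 to 0.12 for Mcm6, -0.21 to 0.17 for Uhrf1, -0.40 to 0.026 for Top2a and -0.39 to 0.030 for Melk. The cause was not tested.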
